A study of Mus musculus with 6 samples.

Results

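The genes described here are 10 immediate early and AP-1 genes, namely Fos, Fosb, Jun, Junb, Jund, Egr1, Ier2, Dusp1, Atf3 and Zfp36. They were taken by symbol as genes of the early response to activation or to tissue handling, by a rule that itself uses no measured value. They make up 10 of the 44678 gene rows deposited for each library, and all 10 were among the 13024 genes that passed the filter on low counts. RNA sequencing was performed on 6 libraries, 3 from wild type (WT) mice and 3 from mice with a knockout (KO) of the miR-144 and miR-451 locus, each described in the sample records as CD8a+ leukocytes of the spleen with no treatment. Both genotypes are young adult mice on the C57BL/6J background by the study's methods, and in the KO mice the locus that encodes miR-144 and miR-451 has been deleted. The WT mice came from an animal centre, and the methods mention no littermate controls. The comparison asks how the transcriptome of these cells differs when both microRNAs are missing. No source used here says whether each library comes from a separate mouse, so the p-values measure the spread between these libraries.

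Immediate early genes are transcribed within minutes of a stimulus from factors already present in the cell, chiefly SRF with its ELK partners and CREB, and their mRNAs are short-lived. The products of Fos and Fosb pair with those of Jun, Junb or Jund to form the transcription factor AP-1, which in T cells and myeloid cells acts on cytokine and activation genes. The same genes are known to respond to the dissociation of tissue, and Dusp1 and Zfp36 encode proteins that switch the response off.

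MicroRNA seed sites were searched first because the KO mice lack both microRNAs. The mature sequences, taken from the RefSeq microRNA table on GRCm38.p6, are shown with the seed (bases 2 to 8) in capitals. They lie on the plus strand at chr11:78073047-78073066 for miR-144-3p, chr11:78073010-78073032 for miR-144-5p and chr11:78073186-78073207 for miR-451a.
mmu-miR-144-3p: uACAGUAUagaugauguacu
mmu-miR-144-5p: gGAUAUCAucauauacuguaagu
mmu-miR-451a: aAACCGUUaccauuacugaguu

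The complement of the whole miR-144-3p seed, ATACTGT, occurred in the 3′-UTR of 2 of the 10 genes, Fosb and Zfp36, against 10.8% of the 20617 genes with a 3′-UTR in GENCODE M21 (GRCm38). The shorter TACTGT, which pairs with bases 2 to 7 and lies inside ATACTGT, occurred in 7 of the 10, against 31.0% of all genes. Jund, Egr1 and Ier2 held neither run. Of the 1679 mature microRNAs in the table, 2 share these bases 2 to 7, miR-144-3p and miR-101a-3p. No member held the 7-base match to miR-144-5p, found in 5.42% of genes, or to miR-451a, found in 1.58%. A match is a run of letters and not a tested site, and the 3′-UTRs of the members, 485 to 2145 nt long, lie on either side of the median of 797 nt over all genes. The windows below are written 5′ to 3′ on the strand of the transcript, with the match in capitals, for both 7-base matches and for the 6-base matches of Fos and Jun, the classical AP-1 pair. They lie at chr7:19303914-19303940 (minus strand, exon 4 of 4) for Fosb, chr7:28376872-28376898 (minus strand, exon 2 of 2) for Zfp36, chr12:85476876-85476901 and chr12:85476984-85477009 (plus strand, exon 4 of 4) for Fos, and chr4:95049718-95049743 (minus strand, the single exon) for Jun.
Fosb: ggagcgctttATACTGTgaatgagtgg
Zfp36: gttaaaactgATACTGTattaagtata
Fos, first site: taacaataccTACTGTgttcctggca
Fos, second site: tatatccatgTACTGTagtccttcag
Jun: gaaagctgatTACTGTcaataaacag

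The AU-rich pentamer AUUUA, which the Zfp36 protein is known to bind in mRNAs marked for decay, was counted in the same 3′-UTRs. It occurred at least once in 9 of the 10 genes, against 61.6% of all genes, and at least 3 times in 5 of the 10, against 32.2%. Fos, Jun and Dusp1 each held 4, Atf3 and Zfp36 each held 3, Junb and Egr1 each held 2, and Fosb and Jund each held 1. Ier2 held 0.

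Promoters were read from the RefSeq table on GRCm38.p6, which gives 250 bases before and 50 after a gene's start and holds 8 of the 10 genes among 32851 promoters. The core of the cAMP response element (CRE), TGACG on either strand, is bound by CREB and ATF proteins and occurred in 5 of these 8, namely Fos, Fosb, Junb, Dusp1 and Atf3, against 20.8% of all promoters. The full CRE, TGACGTCA, which contains the core on both strands, occurred in the Dusp1 promoter alone among the members and in 1.79% of all promoters. The windows show 1 core each, in capitals and on the strand of the gene. Their positions are chr12:85473814-85473838 (plus strand) for Fos, chr7:19310091-19310115 (minus) for Fosb, chr8:84978840-84978864 (minus) for Junb, chr17:26508601-26508625 (minus) for Dusp1 and chr1:191183326-191183350 (minus) for Atf3, where the core reads on the opposite strand.
Fos: ttccgcccagTGACGtaggaagtcc
Fosb: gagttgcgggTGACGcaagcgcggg
Junb: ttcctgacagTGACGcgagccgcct
Dusp1: gtagggcgggTGACGtcaccgcccg
Atf3: aatagcattaCGTCAgcctgggatt

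Among the same 8 promoters, the TATA box TATAAA occurred in Fos and Junb (13.6% of all promoters) and the GC box GGGCGG in 6 (35.7%), all but Junb and Jund. The CArG box, the element that SRF binds, occurred in the Zfp36 window alone (1.63% of all promoters). Elements more than 250 bases before the start were not searched, and Egr1 and Ier2 had no entry, so absence here covers these windows only. The AP-1 site TGANTCA occurred in none of the 8, against 7.81% of all promoters. All motifs were searched on both strands. The RefSeq start of Zfp36, Atf3 and Dusp1 lies 1025 bp or more downstream of the 5′ end of the GENCODE gene. That of Jund lies 1210 bp upstream of its single GENCODE transcript, so its window is outside the GENCODE gene.

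Libraries held 8143971 to 8876570 estimated counts, so that 3 counts correspond to 0.338 to 0.368 counts scaled to library size (CPM). The members were far above this floor, at 346 to 15941 counts per gene and library. Mir144 and Mir451a were at 0 counts in all 6 libraries, so the deletion could not be checked. Of the T cell markers, Cd8a lay between 476.5 and 1041 CPM and Cd3e between 218 and 402.5 CPM. B cell, monocyte, neutrophil and erythroid genes were also detected in every library, and CD8a is itself carried by a subset of dendritic cells (DCs) as well as by cytotoxic T cells. In such bulk samples, fewer cells of a type and less RNA per cell cannot be told apart.

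None of the 10 genes differed between KO and WT by edgeR's quasi-likelihood test after Benjamini-Hochberg adjustment over all genes tested. Their adjusted p ranged from 0.716 to 0.966, and 4 of the 13024 genes passed (0.0307%). DESeq2 and limma voom also called 0 of the 10. Before adjustment, 3 of the 10 had a p under 0.05, namely Fos, Fosb and Egr1, all with the higher mean in KO. Of all genes tested, 6.25% reached that level, 4.14% with the higher mean in KO. The fold change was above 0 on the log2 scale for 9 of the 10 genes, the exception being Ier2, and for 50.6% of all genes. The median log2 fold change was 0.324 over the 10 genes and 0.003 over all genes. Fosb was the only member with all 3 KO libraries above all 3 WT libraries, a separation that 5.83% of all genes had.

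**Figure D1:**
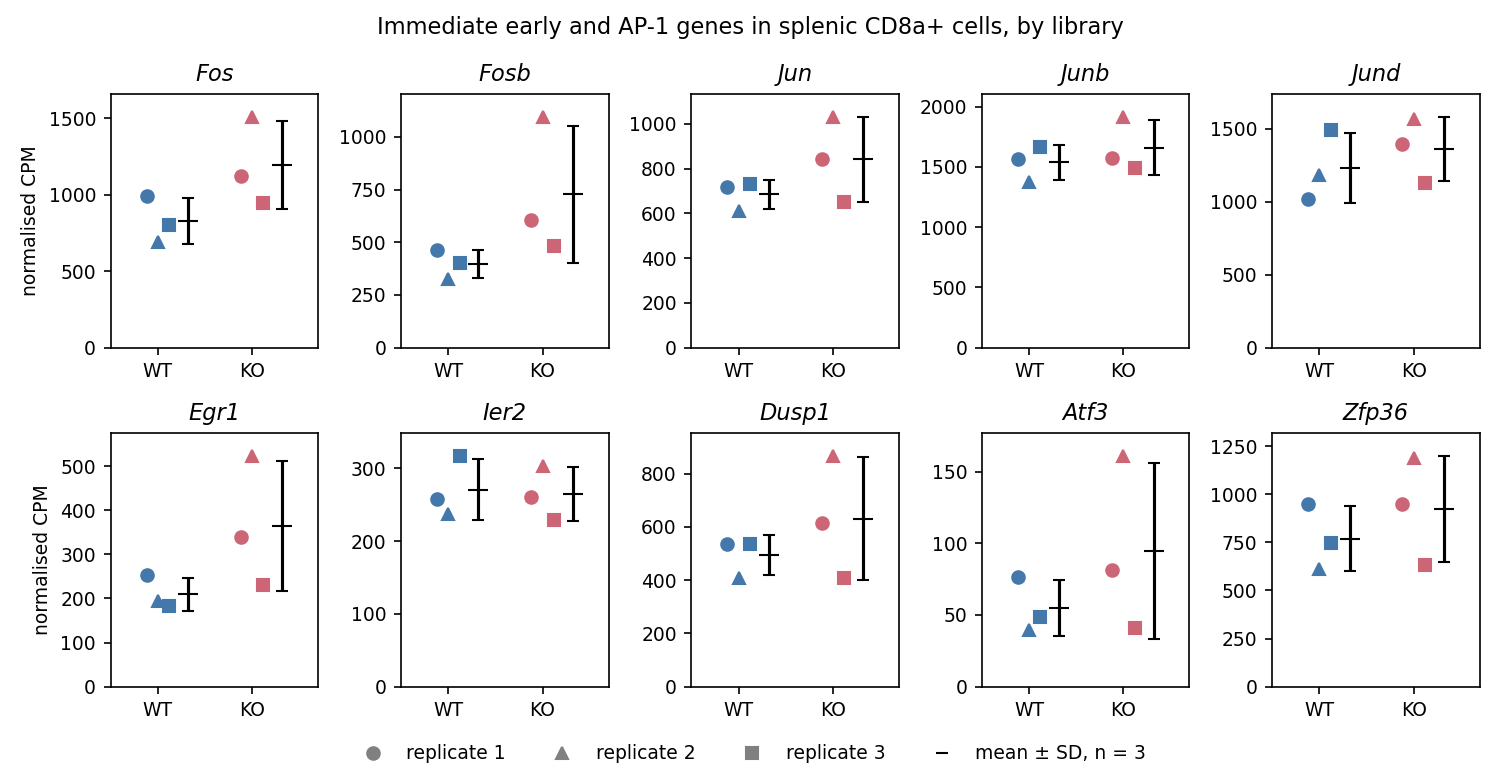
TMM-normalised CPM (linear axis from 0) of each of the 10 genes in the 3 WT and 3 KO libraries, with symbols for the replicate number and bars for mean ± SD (n = 3). KO2 (red triangle) is the highest of the KO libraries and KO3 (red square) the lowest in every panel, and the WT and KO points overlap in every panel except that of Fosb.

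Fos, the partner of the Jun proteins in classical AP-1, lies at chr12:85473890-85477273 on the plus strand in GENCODE M21 (GRCm38). Its normalised level was 992, 695 and 802 CPM in WT1, WT2 and WT3 and 1123, 1512 and 947 CPM in KO1, KO2 and KO3. KO3 lay below WT1, so the groups overlapped by this 1 pair of libraries. The means were 829.5 ± 150.5 CPM in WT and 1194 ± 289 CPM in KO (SD, n = 3 each). KO exceeded WT by a log2 fold change of 0.53 (standard error 0.19, 95% interval 0.08 to 0.97), which is a fold of 1.44 with an interval from 1.06 to 1.96. By edgeR's quasi-likelihood test p was 0.0265 and adjusted p was 0.781.

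Fosb encodes the second Fos protein of the set and lies at chr7:19302696-19310051 on the minus strand. It was measured at 463, 326 and 402 CPM in WT1 to WT3 and at 604, 1097 and 485 CPM in KO1 to KO3. The gap between the groups was narrow, since the lowest KO library, KO3 at 485 CPM, lay just above the highest WT library, WT1 at 463 CPM. KO2 stood apart from the other 5 libraries. Mean levels were 397 ± 68.4 CPM in WT and 729 ± 324 CPM in KO (SD, n = 3 each). The log2 fold change of 0.88 (standard error 0.29, 95% interval 0.22 to 1.53) was the largest among the members, a fold of 1.83 with an interval from 1.16 to 2.89. It had a p of 0.0153 and an adjusted p of 0.716 by the same edgeR test.

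The Jun family members supply the other partner of AP-1, and their ranges overlapped between the genotypes. Jun, at chr4:95049034-95052222 on the minus strand, reached 717, 612 and 729.6 CPM in the WT libraries and 841, 1032 and 651 CPM in the KO libraries. KO3 fell inside the WT range, and KO1 and KO2 lay above it. Means were 686 ± 64.6 CPM in WT and 841.5 ± 190.5 CPM in KO (SD, n = 3 each), and the log2 fold change was 0.29 (standard error 0.17, 95% interval -0.09 to 0.68, edgeR adjusted p = 0.816).

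Junb, which can form AP-1 dimers of weaker activity than Jun, lies at chr8:84974484-84978718 on the minus strand. It showed 1567, 1376 and 1667 CPM in WT1 to WT3 against 1572, 1917.5 and 1489 CPM in KO1 to KO3. Only KO2 exceeded the WT range. With means of 1537 ± 148 CPM in WT and 1659.5 ± 227 CPM in KO (SD, n = 3 each), its log2 fold change was 0.11 (standard error 0.13, 95% interval -0.19 to 0.41, edgeR adjusted p = 0.888).

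Jund, the Jun gene known for steady expression in resting cells, lies at chr8:70698949-70700616 on the plus strand. It was found at 1017, 1179 and 1492 CPM in the WT libraries and at 1398, 1563 and 1128 CPM in the KO libraries. WT1 was the lowest and KO2 the highest, with the other 4 libraries of both genotypes between them. The means were 1229 ± 241 CPM in WT and 1363 ± 219.5 CPM in KO (SD, n = 3 each), and the log2 fold change was 0.15 (standard error 0.17, 95% interval -0.24 to 0.54, edgeR adjusted p = 0.886). Its exon overlaps 877 bp of Gm11175 on the opposite strand, which reached 160 to 241 CPM. Jun likewise overlaps 232 bp of its antisense neighbour Junos, at 1.14 to 3.37 CPM, and Junb overlaps 173 bp of Prdx2. Zfp36 overlaps 125 bp of Gm44710 and Dusp1 overlaps 11 bp of Ergic1, both on the opposite strand. Use of strand in the counting was not stated, so the counts of these 5 members are uncertain to that extent.

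The makeup of AP-1 transcripts was compared on a scale per transcript length (TPM, computed from the union of exons), where levels of different genes can be set side by side. Fos and Fosb together made up 24.7%, 18.8% and 18% of the TPM of the 5 AP-1 subunits in WT1 to WT3. In KO1 to KO3 the share was 24.3%, 28.1% and 23.9%. WT1 lay within the KO range, and WT2 and WT3 lay below it. The means were 20.5% ± 3.66 in WT and 25.4% ± 2.32 in KO (SD, n = 3 each). Fosb accounted for 15% to 15.9% of the Fos and Fosb sum in the WT libraries and for 16.8%, 21.5% and 16.2% in KO1 to KO3. These shares depend on the length used. Over all libraries, the mean was 275 TPM for Fosb and 1307 TPM for Fos by exon union. By the length of the longest transcript it was 353 and 1133 TPM, which gives Fosb a larger share. Jund made up 45.3% ± 4.43 of the Jun family TPM in WT and 45.3% ± 1.4 in KO (SD, n = 3 each).

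Egr1 encodes a zinc finger transcription factor that, like Fos, is driven by SRF and ELK, and lies at chr18:34859823-34864984 on the plus strand. Its levels were 253, 193 and 184 CPM in WT1 to WT3 and 339, 524 and 231 CPM in KO1 to KO3. As for Fos, KO3 below WT1 was the only overlap between the groups. Mean levels reached 210.0 ± 37.4 CPM in WT and 364 ± 148 CPM in KO (SD, n = 3 each). The log2 fold change was 0.80 (standard error 0.27, 95% interval 0.17 to 1.42), a fold of 1.74 with an interval from 1.12 to 2.68, with a p of 0.0193 and an adjusted p of 0.729 by edgeR's quasi-likelihood test.

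Atf3, a stress-induced member of the ATF and CREB family, lies at chr1:191170296-191218039 on the minus strand and had the lowest counts of the set. It was measured at 76.8, 39.5 and 48.6 CPM in the WT libraries and at 81.7, 161 and 41.1 CPM in the KO libraries. KO3 lay between WT2 and WT3, whereas KO2 was 3.92 times KO3, the widest gap between these libraries among the members. The means were 55.0 ± 19.4 CPM in WT and 94.7 ± 61.1 CPM in KO (SD, n = 3 each). The log2 fold change of 0.78 had a standard error of 0.45 and a 95% interval of -0.25 to 1.82, which holds both no difference and a fold of up to 3.53 (edgeR adjusted p = 0.816).

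Ier2, an intronless early response gene at chr8:84661331-84662852 on the minus strand, was the only member with the lower mean in KO. It reached 257, 238 and 317.5 CPM in WT1 to WT3 and 260.5, 304 and 229.7 CPM in KO1 to KO3. WT3 was the highest library and KO3 the lowest, and between them WT1 and WT2 lay below KO1 and KO2. Its means of 271 ± 41.5 CPM in WT and 265 ± 37.1 CPM in KO (SD, n = 3 each) gave a log2 fold change of -0.03 (standard error 0.14, 95% interval -0.36 to 0.29, edgeR adjusted p = 0.966). Ier2 and Junb lie 311.6 kb apart on the same strand.

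Dusp1 encodes a phosphatase that inactivates MAP kinases, and its gene lies at chr17:26505590-26562128 on the minus strand. It was found at 535, 406.5 and 537 CPM in the WT libraries and at 615, 868 and 407 CPM in the KO libraries. KO3 and WT2 were nearly equal at the low end, and KO1 and KO2 lay above all WT libraries. The means were 493 ± 74.8 CPM in WT and 629.8 ± 231 CPM in KO (SD, n = 3 each), with a log2 fold change of 0.35 (standard error 0.25, 95% interval -0.22 to 0.93, edgeR adjusted p = 0.841).

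Zfp36 encodes tristetraprolin, which binds AU-rich mRNAs, including its own, and hastens their decay. The gene lies at chr7:28376784-28380253 on the minus strand. Its level was 947, 613 and 748 CPM in WT1 to WT3 and 950.5, 1186.5 and 633.5 CPM in KO1 to KO3. KO1 exceeded WT1 only slightly, and KO3 fell near the lowest WT library. Means of 769 ± 168 CPM in WT and 923.5 ± 277.5 CPM in KO (SD, n = 3 each) gave a log2 fold change of 0.26 (standard error 0.24, 95% interval -0.28 to 0.81, edgeR adjusted p = 0.87).

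The 10 genes followed a common order among the KO libraries. KO2 was above KO1 and KO1 above KO3 for all 10, an order that 22.7% of all genes tested had. KO2 was the highest of all 6 libraries for 9 members (22.9% of all genes), the exception being Ier2. KO2 lay above every WT library for 9 members and KO1 for 7, against 31.0% and 26.0% of all genes. KO3 lay above every WT library for Fosb alone (23.9% of all genes), within the WT range for 8 members (52.6% of all genes) and below it for Ier2. Among the WT libraries, WT2 was the lowest for 8 members, while the highest was WT1 for 5 and WT3 for the other 5.

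As a summary of the pattern, the log2 CPM of each member was centred on its mean over the 6 libraries and averaged over the members. This gave -0.03, -0.40 and -0.13 in WT1 to WT3 and 0.17, 0.64 and -0.25 in KO1 to KO3. KO3 thus lay inside the WT range of -0.40 to -0.03, and KO1 and KO2 lay above it. The ratio of KO2 to KO3 was widest for Atf3, Egr1 (2.27), Fosb (2.26) and Dusp1 (2.13) and narrowest for Junb (1.29), Ier2 (1.32) and Jund (1.39).

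The members varied more between libraries of 1 genotype than most genes of like level. The median SD of log2 CPM over the members was 0.25 in WT and 0.40 in KO, against 0.109 and 0.108 over the 3661 genes with a mean log2 CPM of at least 6. Atf3 had the widest spread in both genotypes, with an SD of 0.489 in WT and 0.983 in KO. Jun was the steadiest in WT (0.14) and Junb in KO (0.192). The SD was larger in KO than in WT for 8 of the 10, against 52.4% of those genes.

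The difference between genotypes moved with the choice of KO libraries. Without KO2, the median log2 fold change of the members was 0.0862, and that of Fosb was 0.46, of Egr1 0.44 and of Fos 0.32. Atf3 fell to 0.159, Dusp1 to 0.0517 and Zfp36 to 0.0421 in the same fit. Without KO3, the median was 0.51, all 10 members had the higher mean in KO, and the values for Atf3, Fosb and Egr1 were 1.12, 1.08 and 1.02. Without KO3, 7 of the 10 had an unadjusted p under 0.05 and 1869 of 13302 genes did so. In that fit 0 of the 10 passed after adjustment, where 0.707% of genes passed, and the smallest edgeR adjusted p among the members was 0.0877, for Egr1. Without WT2, 0 of the 10 had an unadjusted p under 0.05, against 468 of 13319 genes.

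**Figure D2:**
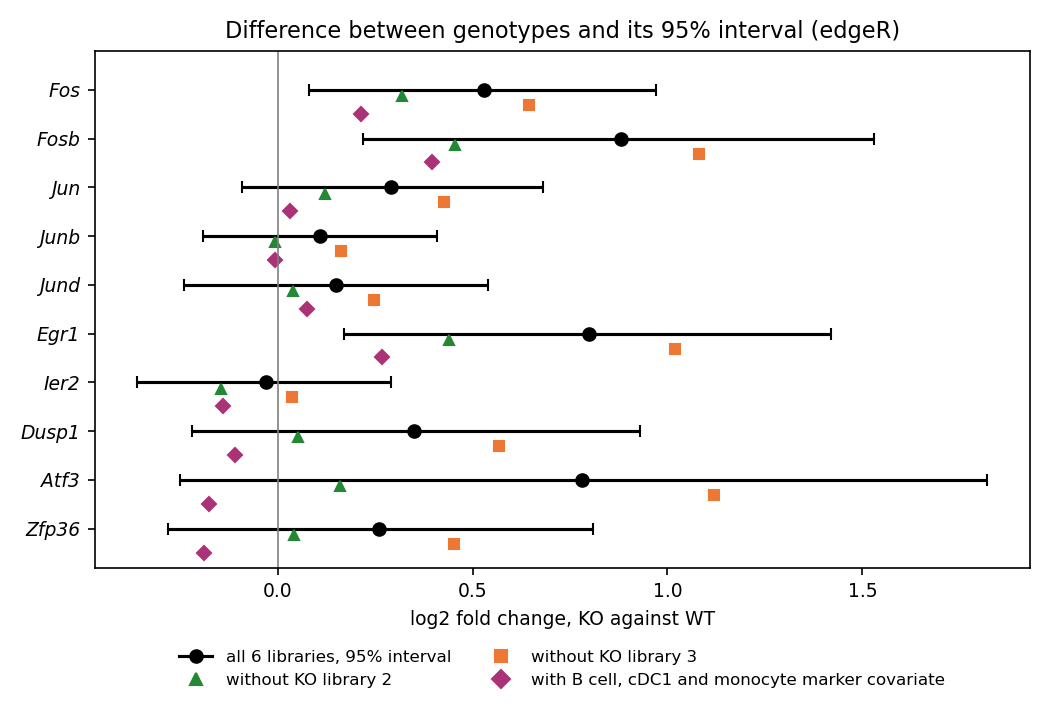
Log2 fold change of KO against WT for each gene, with the 95% interval of the edgeR fit to all 6 libraries (black) and the values without KO2 (triangles), without KO3 (squares) and with a marker covariate (diamonds). The interval lies above 0 for Fos, Fosb and Egr1 and includes 0 for the other 7, and every value without KO2 lies below the value from all libraries.

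Markers of some other cell types followed the order of the members among the KO libraries, and those of others did not. The summed CPM of the 10 members was 6825, 5678 and 6927 in WT1 to WT3 and 7785, 10164 and 6241 in KO1 to KO3. For the 8 monocyte and macrophage markers the sum was 1499, 791 and 899 CPM in WT1 to WT3. It was 1821, 2111 and 762 CPM in KO1 to KO3, with KO2 highest and KO3 lowest of all libraries. The 8 B cell markers summed to 2615, 1543.5 and 1498 CPM in WT1 to WT3. In KO1 to KO3 their sum was 2747.5, 3036 and 1299 CPM, again with KO2 highest and KO3 lowest. The 8 CD8 T cell markers ran the other way, with the lowest sum in KO2 (2334 CPM) and 3361 to 4475 CPM in WT. Within WT the orders differed, since the member sum was highest in WT3, where the B cell sum was lowest of WT. The monocyte and B cell sums were highest of WT in WT1, and the lowest of all libraries for the members was WT2.

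The 8 markers of the CD8a+ DC subset (cDC1) summed to 537 to 603 CPM in WT and 712 to 816 CPM in KO, the groups not overlapping. Singly, 5 of the 8 had all KO above all WT libraries, against 5.83% of all genes. Xcr1 overlapped, at 15.4 to 17.7 CPM in WT and 25.4, 16.5 and 33.7 CPM in KO1 to KO3. By edgeR, 6 of the 8 had an unadjusted p under 0.05 with the higher mean in KO, against 4.14% of all genes. Of the 8 monocyte and macrophage markers, 3 reached that level with the higher mean in KO, and 0 of the 8 B cell markers did. Under edgeR, 0 markers of these 3 lists passed after adjustment, limma voom called 0, and DESeq2 called 1, Cadm1 of the cDC1 list. Neutrophil markers summed to 221.5 to 910 CPM in WT and 353.5 to 1099 CPM in KO, and erythroid markers to 239.8 to 804 CPM in WT and 433 to 2586 CPM in KO. KO2 was the highest library for both lists. Plasmacytoid DC markers summed to 369.5 to 435 CPM in WT and to 471, 497.5 and 325 CPM in KO1 to KO3. Natural killer (NK) cell markers lay at 381 to 398 CPM in WT and at 272, 283 and 419.8 CPM in KO1 to KO3, with KO3 the highest and KO1 the lowest library. The CD4 T cell markers were highest in WT1, at 148 CPM, and lowest in KO3, at 77.6 CPM. No marker of these lists was at 0 in any library. The part of other cells in the levels of the 10 genes was not tested directly.

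With the mean log2 CPM of the 24 B cell, cDC1 and monocyte markers as a covariate, the median log2 fold change of the members was 0.0122, and 5 of the 10 remained above 0. Fosb then stood at 0.40, Egr1 at 0.27 and Fos at 0.21, and 0 of the 10 had an unadjusted p under 0.05, against 878 of 13024 genes in that fit. The covariate, centred on its mean, was 0.123, -0.387 and -0.363 in WT1 to WT3 and 0.409, 0.505 and -0.286 in KO1 to KO3. It thus partly followed genotype, so this fit cannot separate genotype from marker level. The 14 heat shock and chaperone genes, some of which respond to stress, were also summed. Their sum was 5127 to 5854 CPM in WT and 4450.5, 6297 and 5977 CPM in KO1 to KO3, so that KO1 was lowest for this list while it was the second highest for the members. Of the 13 heat shock genes tested, 9 were highest in KO2 and 1 was lowest in KO3. Hspa1a, an inducible chaperone named after its values were seen, was at 27.9, 9.91 and 30.1 CPM in WT1 to WT3 and at 13.2, 61.9 and 16.0 CPM in KO1 to KO3. It was thus highest in KO2 and lowest in WT2, with KO1 below WT1 and WT3.

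**Figure D3:**
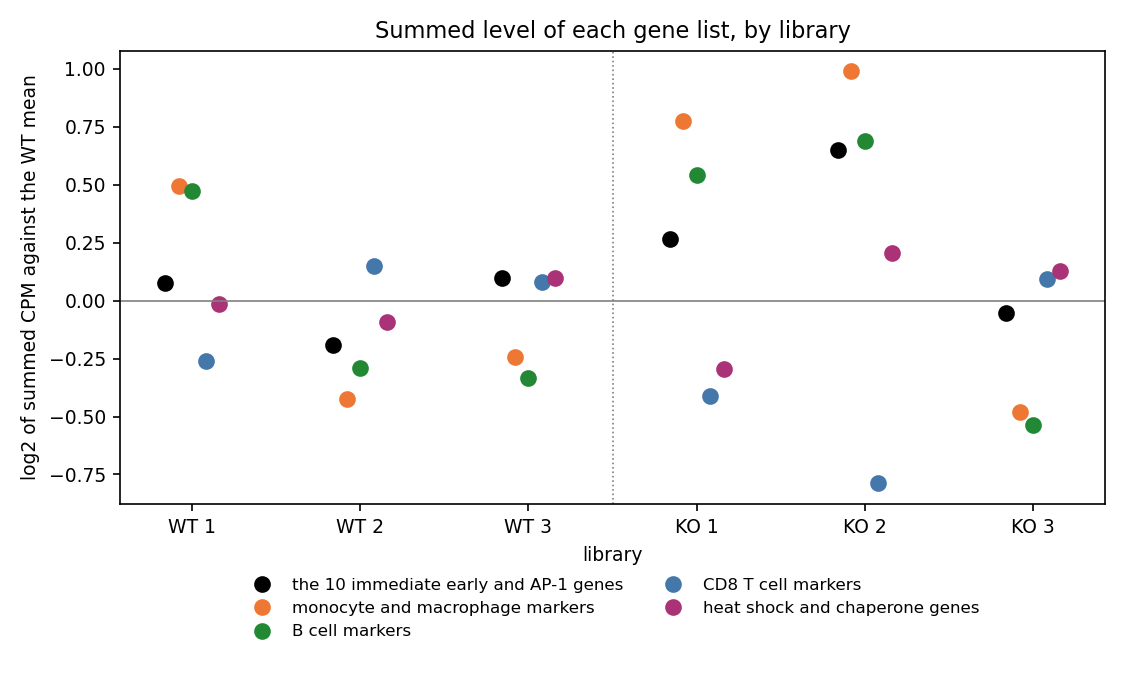
Summed CPM of the 10 genes, of monocyte and macrophage, B cell and CD8 T cell markers and of heat shock genes in each library, as log2 against the WT mean. The members, monocyte and B cell sums are highest in KO2, where the CD8 T cell sum is lowest (2334 CPM), and heat shock genes are lowest in KO1.

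Levels of the 10 genes were compared per transcript length over all 6 libraries. Jund and Junb led, with mean levels of 2361 ± 450.3 and 2106.5 ± 279 TPM (SD, n = 6). Jund exceeded Junb in 5 of 6 libraries, WT1 being the exception, so this pair was not separated beyond its spread. Fos followed at 1307 ± 394 TPM, below Junb and above Zfp36 in all 6 libraries. Zfp36 (740.0 ± 202.5 TPM) and Jun (727.5 ± 160.3 TPM) were in this order in 3 of 6 libraries and could not be ranked.

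Ier2 (533.5 ± 77.9 TPM) and Dusp1 (515 ± 167 TPM) came next and were in this order in 4 of 6 libraries. Fosb (275 ± 141.5 TPM), Egr1 (195 ± 91.3 TPM) and Atf3 (106 ± 67.2 TPM) closed the order, each above the next in all 6 libraries. With the length of the longest transcript in place of the exon union, Junb passed Jund and Dusp1 passed Jun and Ier2, and the other places were kept.

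**Figure D4:**
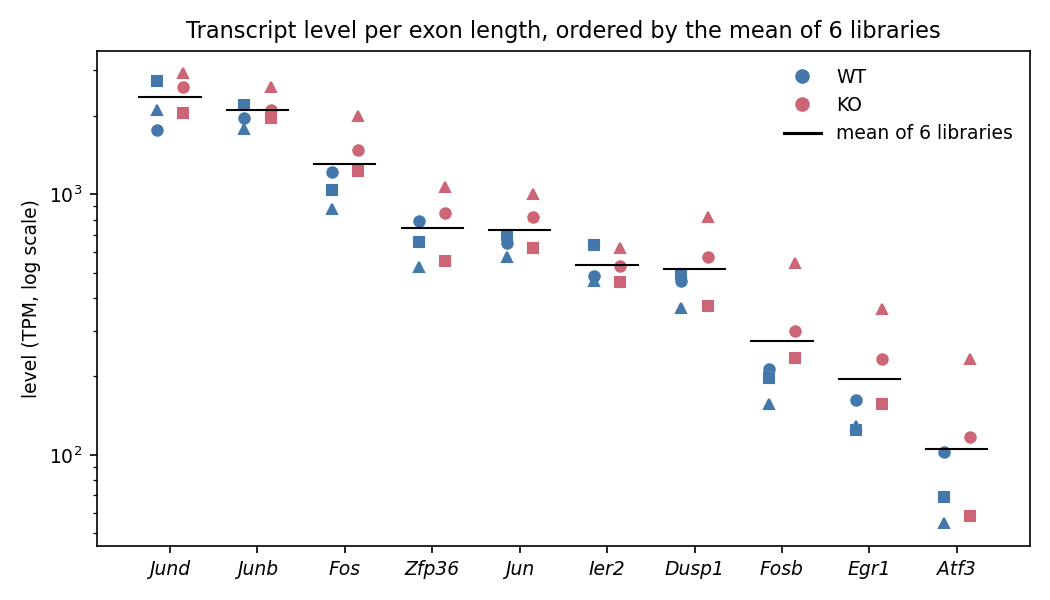
Level of each gene in TPM per exon length (log axis) in the 6 libraries, WT in blue and KO in red, with a line at the mean of 6. Jund and Junb lie near 2361 and 2106.5 TPM and Atf3 near 106 TPM, and neighbours such as Zfp36 and Jun overlap.

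The relatives and regulators of the 10 genes were examined as lists. Of the other AP-1 and ATF family genes, 21 of 23 were tested and 17 had the higher mean in KO, with a median log2 fold change of 0.095. By edgeR 0 passed after adjustment, and 2 had an unadjusted p under 0.05, 1 of them Maf, a bZIP factor of macrophages and T cells. Maf lay at 21.7 to 31.8 CPM in WT and at 56.1, 69.8 and 27.6 CPM in KO1 to KO3 (log2 fold change 0.93, standard error 0.31, edgeR adjusted p = 0.716). As for most members, KO3 was within the WT range. The most abundant genes of the list, Atf4, Bach2 and Creb1, had log2 fold changes of 0.03, 0.08 and 0.09.

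Of the other immediate early genes, 34 of 36 were tested, 28 had the higher mean in KO, and the median log2 fold change was 0.117. KO2 was the highest library for 26 of the 34 and KO3 the lowest for 16. None passed the edgeR test after adjustment, and 0 had an unadjusted p under 0.05. Egr3, a paralog of Egr1, was at 19.6 to 24.0 CPM in WT and at 30.3, 43.2 and 19.8 CPM in KO1 to KO3 (log2 fold change 0.56, adjusted p = 0.804). Rgs1, a regulator of G protein signaling, had a log2 fold change of 0.58 (adjusted p = 0.816). The most abundant genes of the list, Btg1, Klf2 and Tnfaip3, had values of -0.03, -0.15 and -0.06, so the list was not uniform.

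The kinases and promoter factors upstream of the 10 genes lay close to no difference, with all 26 tested, 14 higher in KO, a median of 0.011 and values between -0.12 and 0.32. In edgeR 0 of the 26 passed after adjustment and 0 had an unadjusted p under 0.05. Prkaca, a catalytic subunit of the kinase that activates CREB, was at 56.7 to 58.0 CPM in WT and 61.0 to 63.2 CPM in KO (log2 fold change 0.13, edgeR adjusted p = 0.817). Other kinases of the list, Prkacb, Rps6ka1 and Map2k6, had log2 fold changes of -0.03, -0.12 and 0.32.

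Among the 19 feedback phosphatases and mRNA decay factors, all were tested and 11 had the higher mean in KO, with a median log2 fold change of 0.069. After adjustment 0 passed in edgeR, and 2 had an unadjusted p under 0.05. Dusp6, a MAP kinase phosphatase and a relative of Dusp1, was at 71.4, 68.1 and 73.7 CPM in WT1 to WT3 and 103, 121 and 78.2 CPM in KO1 to KO3. All KO libraries lay above all WT libraries, with KO2 again the highest and KO3 the lowest of the KO libraries (log2 fold change 0.50, standard error 0.15, edgeR adjusted p = 0.683). Elavl1, which encodes the mRNA stabiliser HuR, had a log2 fold change of 0.25 (adjusted p = 0.786) with KO3 the highest library at 108 CPM. The relatives of Zfp36, Zfp36l2 and Zfp36l1, had values of -0.02 and 0.19, and Cnot1, the scaffold of the deadenylase that Zfp36 recruits, 0.07.

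Of 22 T cell activation genes listed, 21 were tested and 9 had the higher mean in KO (42.9%, against 50.6% of all genes). Their median log2 fold change was -0.018, with values between -0.38 and 0.78, and 0 had an unadjusted p under 0.05. Il2ra, a chain of the interleukin receptor on activated T cells, had a log2 fold change of 0.54 (edgeR adjusted p = 0.797), and Tbx21, a transcription factor of effector T cells, -0.27 (adjusted p = 0.816). The transcription factors Nfatc3, Nfatc1 and Irf4, the most abundant of the list, had values of -0.04, -0.02 and 0.34. Of 13 heat shock genes tested, 8 had the higher mean in KO with a median of 0.061. The one with an unadjusted p under 0.05 was Hspe1, a mitochondrial chaperonin, which was lower in KO (log2 fold change -0.44, standard error 0.09, adjusted p = 0.396). The abundant chaperones Hspa8, Hsp90ab1 and Hspa5 had values of 0.03, -0.02 and 0.07, and Hsph1 0.25. DESeq2 and limma voom called 0 genes in each of these 6 lists.

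**Figure D5:**
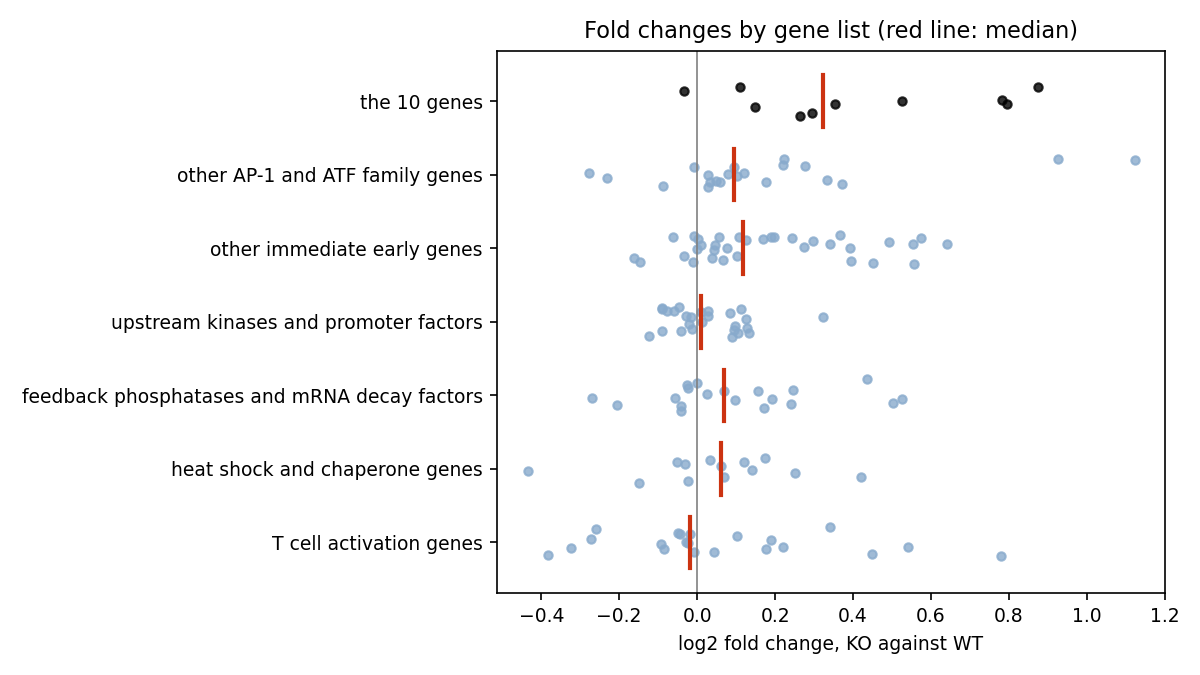
Log2 fold change of KO against WT for each tested gene of the 7 lists (points), with the list median as a red line and no vertical scale within a list. The 10 genes have a median of 0.324 and the other lists have medians between -0.018 and 0.117.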

How the data were processed

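The deposited values are expected counts, that is, read counts the authors estimated per Ensembl gene, with 1 table for each library and no sign of scaling for depth or gene length. Since no source names the unit, it was inferred from the values, of which 3527 to 4925 per library were not whole. The aligner, counting program, annotation and use of strand are not given in the sources used here, and the submitters' processing notes name the builds GRCm38 and mm10. The library kit was a SMARTER mRNA kit. Counts were rounded and compared in R 4.3.3 with edgeR 4.0.16, using TMM factors of 0.9891 to 1.014, filterByExpr (minimum count 10, minimum total 15) and the quasi-likelihood test with genotype as the only term. The p-values were adjusted by the Benjamini-Hochberg method over 13024 genes at a threshold of 0.05. No test is named for the RNA-seq counts specifically in the sources used here, and this design was chosen to fit counts. CPM values are TMM-normalised, and log2 CPM used a prior count of 2. TPM was computed from the deposited counts and GENCODE M21 exon unions, which held 44121 of 44678 identifiers (98.75%).

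The 10 genes, the gene lists and the markers were chosen with earlier results of these data known, although the rule for the 10 genes uses no measured value. Named genes are all members, from each list those with an adjusted p under 0.05, the 3 most abundant and the 2 with the smallest p, and the 5 genes most like the members (mean log2 CPM of at least 4). Some genes that this rule names are not reported here. Genes that overlap a member were named after their values were seen. The alternatives were DESeq2 1.42.0, limma 3.58.1 voom, upper-quartile factors, library totals, other filters, the replicate number as a block, a marker covariate and each library left out. Floors of 3 counts cover counting error only.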

Additional observations from a re-analysis of the deposited data

How the results depend on the processing

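Under 14 alternatives, 0 of the 10 genes passed after adjustment, with adjusted p from 0.0877 to 1, and 133 of 140 fold changes kept their direction. With the marker covariate, the log2 fold change turned to -0.00693 for Junb, -0.109 for Dusp1, -0.177 for Atf3 and -0.189 for Zfp36. With single libraries left out, Junb ranged from -0.00623 (without KO2) to 0.162 and Ier2 from -0.145 to 0.0788 (without WT3), with 0.0371 without KO3. The median of the members then ranged from 0.0862 to 0.51. The count of genes called was 4 with edgeR and 53 with DESeq2 (48 higher in KO), 12 without a filter, 10 with the covariate and 2 to 94 with single libraries left out, 94 being the count without KO3. The cause of these shifts was not tested. Replicate numbers did not pair the libraries, since deviations of same-numbered libraries correlated at -0.0101, -0.199 and 0.111. With the replicate block, 9 genes and 0 members were called, and the median of the members was 0.285. Using the longest transcript moved the mean level of Jund to 1832 TPM, of Jun to 565 TPM and of Ier2 to 414 TPM. With 3 libraries per genotype, the SD of log2 CPM in KO ran from 0.192 for Junb to 0.983 for Atf3, and the 95% interval of the fold change included 0 for 7 of the 10 genes.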

Other observations

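The genes outside the set whose log2 CPM followed the mean profile of the members most closely over the 6 libraries were Rgs2, Ccrl2, Lrrc8d, Mfsd12 and Sowahc, out of 8158 genes ranked, with Pearson's r between 0.99 and 0.997. These correlations describe 6 libraries whose cell type marker levels also differ, and carry no test. Rgs2, which encodes a regulator of G protein signaling and is also one of the other immediate early genes listed, was at 227, 161 and 197 CPM in WT1 to WT3 and at 263, 387 and 175 CPM in KO1 to KO3. KO2 was highest and KO3 lay within the WT range, as for most members. Ccrl2, an atypical chemokine receptor of myeloid cells, was at 18.4, 9.13 and 12.5 CPM in WT and at 24.8, 57.9 and 10.4 CPM in KO1 to KO3. Its log2 fold change of 1.21 exceeded that of every member, with an edgeR adjusted p of 0.797. Among the members themselves, which enter the profile, r ran from 0.991 for Jun to 0.616 for Jund and 0.589 for Ier2.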
